A study of Arabidopsis thaliana with 8 samples.

Results

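Transcript levels in seedlings labelled as mutant for both ATPase genes of the ISWI chromatin remodelling complex, chr11/17, were set against those in seedlings labelled as mutant for accessory subunit genes of the same complex, arid5 and rlt1/2. The 2 chr11/17 libraries were compared with the 4 libraries of the accessory subunit mutants as a whole, out of 8 libraries in the series. All plants were whole Col-0 seedlings, collected 10 days old from MS medium, with days of 16 h at 23 °C and nights of 8 h at 21 °C. By their labels, the chr11/17 group is homozygous for mutations in CHR11 and CHR17, the arid5 group in ARID5 and the rlt1/2 group in RLT1 and RLT2. Each of these groups, and the wild type (WT), has 2 libraries. The alleles, and the number of seedlings in a library, are not given in the labels. Whether both libraries of a group came from separate batches of plants is not stated in the labels, and a p-value therefore reflects sample-to-sample spread that may be technical.

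ISWI remodellers use ATP to slide and space nucleosomes along DNA. In Arabidopsis CHR11 and CHR17 are the interchangeable motor subunits. The DDT-domain proteins RLT1 and RLT2 and the protein ARID5, which the series title describes as binding H3K4me3 and DNA, attach to the motor and direct where it acts. CHR11 and CHR17 are also found with other DDT-domain partners and in the SWR1 complex, which places the histone variant H2A.Z. Plants without CHR11 and CHR17 are known to be small and to flower early. Loss of the motors and loss of the accessory subunits therefore need not remove the same activities, which is the question the comparison addresses.

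Depth was 23135817 to 29965298 reads per library over the 22636 genes that were listed for all groups. A level below is a normalised read count, brought to one scale across the 3 deposited tables through the WT libraries that they share. Differences are chr11/17 minus the mean of the arid5 and rlt1/2 group means on the log2(value + 10) scale, with their standard error, and adjusted p-values are from limma. This scale understates the change of genes with low values. Folds are ratios of mean levels in which the 4 accessory mutant libraries weigh equally. Levels are not divided by gene length, so they are compared between libraries and not between genes. In whole seedlings, fewer cells of a type and less RNA per cell cannot be told apart.

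The mutated genes were examined first. CHR11 (AT3G06400) had 7226 and 7319 normalised reads in the chr11/17 libraries, against 3340 and 3322 in arid5, 3492 and 3303 in rlt1/2 and 3079 and 2914 in WT. It was thus 2.16-fold higher in the libraries labelled as its mutant, a log2 difference of 1.11 ± 0.06 with an adjusted p of 8.78e-08, and no other library came near that level. CHR17 (AT5G18620) had 771 and 834 in chr11/17, against 1960 and 2046 in arid5, 1981 and 2013 in rlt1/2 and 1396 and 1315 in WT. It was the lowest in chr11/17, with a log2 difference of -1.31 ± 0.06 and an adjusted p of 4.2e-08. A count over a whole gene can include reads from a disrupted allele, and with no allele given the raised CHR11 count checks nothing of the label. The libraries are therefore named by their labels throughout.

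ARID5 (AT3G43240) had 1051 and 1014 in chr11/17, against 213 and 206 in arid5 and 1088 and 1016 in rlt1/2, with 830 and 843 in WT. Its level was low in the 2 arid5 libraries only, and chr11/17 overlapped rlt1/2. RLT2 (AT5G44180) had 1902 and 1849 in chr11/17, against 2662 and 2736 in arid5, 79.3 and 54.8 in rlt1/2 and 2068 and 1954 in WT. Here chr11/17 lay between its comparison groups, below arid5 and far above rlt1/2. Both genes passed the test against the mean of the accessory mutants (log2 differences of 1.11 and 2.06), but neither did when the 4 accessory libraries were treated as 1 group, with adjusted p-values of 0.127 and 0.206. RLT1 (AT1G28420) had 2323 and 2343 in chr11/17, against 2745 and 2816 in arid5, 2094 and 1724 in rlt1/2 and 1764 and 1781 in WT, so the libraries labelled rlt1/2 were not below WT for this gene, and the difference of chr11/17 was 0.02 ± 0.07 (adjusted p = 0.809).

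Over all genes, chr11/17 stood far from both accessory mutants, which were close to each other. The median absolute log2 difference was 0.495 between chr11/17 and arid5, 0.476 between chr11/17 and rlt1/2 and 0.0917 between arid5 and rlt1/2. Between the 2 libraries of a group it was 0.100 to 0.141. Against WT it was 0.634 for chr11/17, 0.281 for arid5 and 0.302 for rlt1/2. Of the 21194 genes tested, 14741 passed at an adjusted p of 0.05 (69.6%), with 6935 higher in chr11/17 (32.7%) and 7806 lower (36.8%). A call on its own therefore says little about a gene, and each list count below is to be read beside these shares. For most lists, counts are also given for genes that were called and differed by more than 2-fold on the log2 scale. Over all genes, 2301 of these were higher (10.9%) and 2439 lower (11.5%).

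The same size of difference appeared against each accessory mutant alone. Set against arid5, 13843 genes were called in chr11/17 (65.3%), 31% of all tested being higher and 34.3% lower. Set against rlt1/2, 13696 were called (64.6%), 30.5% of all tested being higher and 34.1% lower. The contrast of arid5 with rlt1/2, in the same fit, called 60 genes (0.283%). In 16129 genes both chr11/17 libraries lay outside the range of all 4 accessory mutant libraries (76.1%), above it in 7633 (36%) and below it in 8496 (40.1%). Only 236 genes were called although a chr11/17 library lay within that range (1.11%), and ARID5 and RLT2 were among them. The median log2 difference over all genes was -0.05. Of the genes tested, 393 passed the filter on low values only through chr11/17, and such a gene could enter the test only by being high there.

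**Figure D1:**
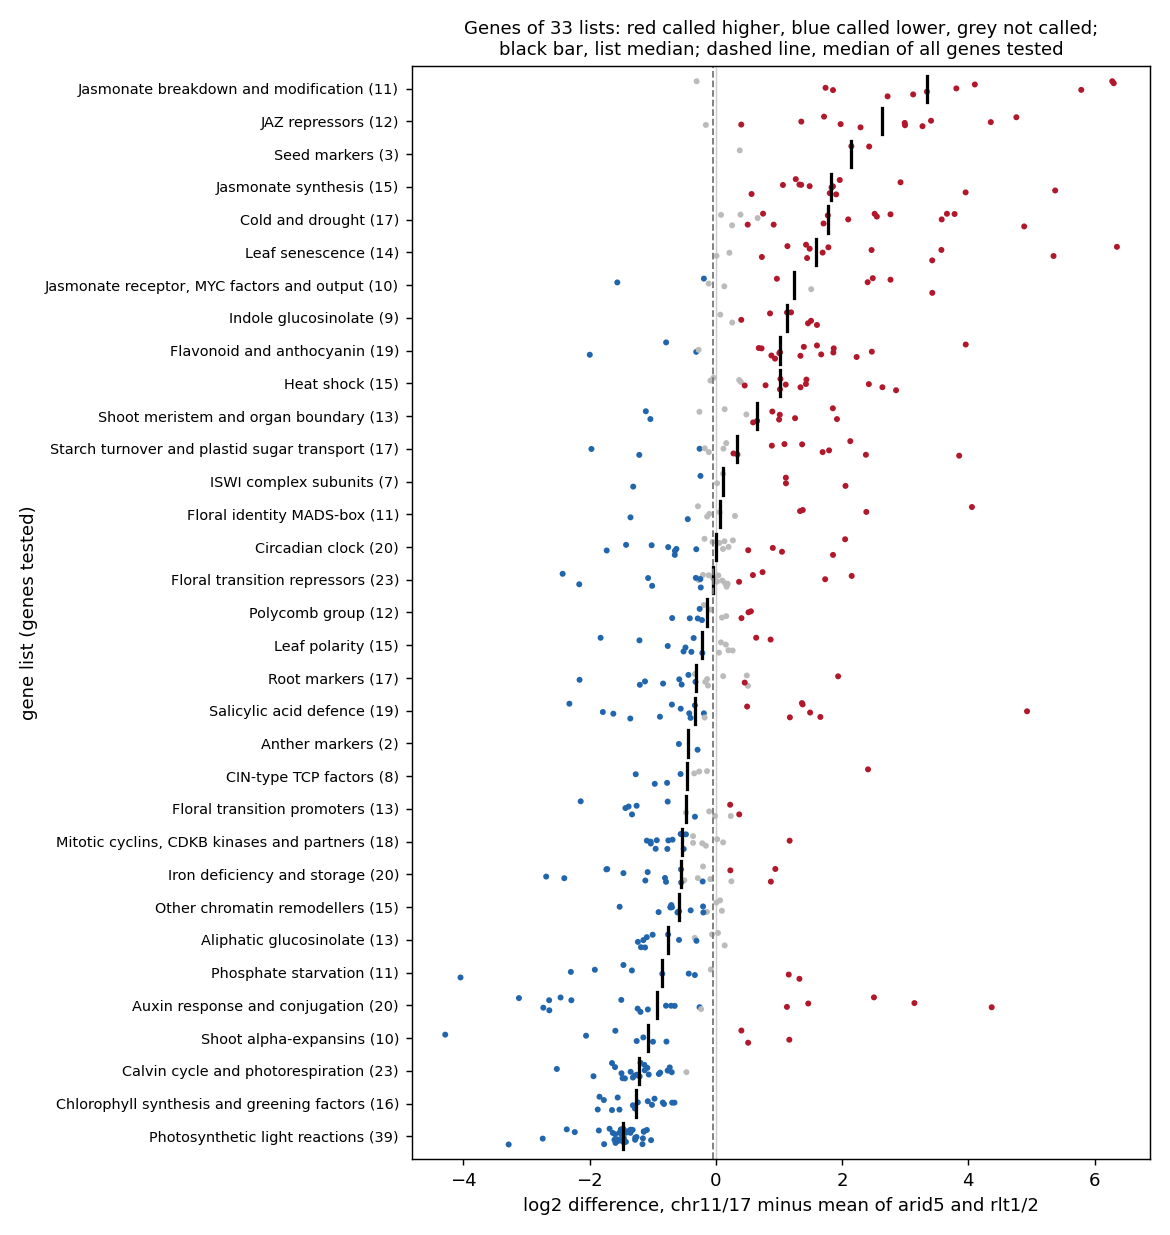
Each point is 1 gene of the 33 gene lists, placed on the x axis by its log2 difference, chr11/17 minus the mean of arid5 and rlt1/2, with the number of genes tested beside the list's name. Red genes were called higher and blue genes lower; jasmonate breakdown (median 3.35) and the JAZ repressors (median 2.64) lie at the top, and the light reactions of photosynthesis (median -1.47) at the bottom.

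Jasmonate genes were far above the accessory mutants, and the breakdown and JAZ lists had the highest medians of the 33 lists. Jasmonate is an oxidised lipid hormone of wounding and defence that is made in the plastid and peroxisome, and its conjugate with isoleucine lets the receptor COI1 remove the JAZ proteins, which otherwise hold the MYC transcription factors inactive. The genes for making the hormone, for the JAZ repressors and for breaking the hormone down are themselves induced by it. All 15 synthesis genes tested were called higher in chr11/17, 14 of them by more than 2-fold, with a median log2 difference of 1.83. Of 12 JAZ genes, 11 were called higher and 10 by more than 2-fold (median 2.64), and of 11 breakdown and modification genes 10 were called higher, each by more than 2-fold (median 3.35).

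LOX3 (AT1G17420), a lipoxygenase that starts the pathway, had 22180 and 19840 in chr11/17, against 372 and 308 in arid5, 667 and 782 in rlt1/2 and 251 and 247 in WT. The chr11/17 libraries were 39.5-fold above the accessory mutants (5.38 ± 0.09, adjusted p = 4.52e-10). Its relative LOX4 had 2959 and 3224 in chr11/17, against 152 and 167 in arid5, 237 and 213 in rlt1/2 and 82.9 and 62.7 in WT (3.96 ± 0.12). In both genes the order was chr11/17, rlt1/2, arid5 and WT, with no overlap between groups. OPCL1, the ligase that prepares the precursor for peroxisomal shortening, had 4453 and 4280 in chr11/17, against 970 and 1090 in arid5, 1305 and 1296 in rlt1/2 and 723 and 774 in WT (1.91 ± 0.07). The smallest difference in the list was that of AIM1, a peroxisomal enzyme of fatty acid shortening, at 0.57. Together the synthesis genes took 0.698 and 0.666% of the reads of the chr11/17 libraries, against 0.196 and 0.185% in arid5, 0.233 and 0.265% in rlt1/2 and 0.137 and 0.128% in WT. The exact permutation test of the 2 chr11/17 libraries against the 4 others gave p = 0.133, the smallest two-sided value that 15 splits allow.

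The JAZ repressor JAZ10 had 3377 and 3162 in chr11/17, against 116 and 77.5 in arid5, 123 and 135 in rlt1/2 and 67.4 and 65.5 in WT. This 29-fold difference (4.76 ± 0.14, adjusted p = 3.97e-09) was the largest in the family. JAZ9 had 7237 and 7387 in chr11/17, against 865 and 858 in arid5, 905 and 1006 in rlt1/2 and 1215 and 1026 in WT (3.0 ± 0.08), and JAZ6 had 3697 and 3672, against 675 and 723, 803 and 780, and 1143 and 1235 in the same order of groups (2.29 ± 0.06). For these 2 genes WT lay between, with chr11/17 above it and the accessory mutants below it. JAZ11 was the exception, at 283 and 238 in chr11/17, against 315 and 272 in arid5 and 278 and 300 in rlt1/2, with overlapping groups and an adjusted p of 0.2. JAZ8 passed the filter on low values only through chr11/17.

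Among the breakdown enzymes, CYP94B3, a cytochrome P450 that oxidises the active conjugate, had 5925 and 5220 in chr11/17, against 33.9 and 32.8 in arid5, 93.5 and 125 in rlt1/2 and 39.1 and 43.6 in WT. That is 78.1-fold (6.28 ± 0.13, adjusted p = 7.85e-10), and rlt1/2 also lay above arid5. JOX4, which hydroxylates free jasmonate, had 2838 and 3202 in chr11/17, against 15.5 and 10.3 in arid5, 82.2 and 35.0 in rlt1/2 and no reads in WT (84.5-fold, 6.30 ± 0.25). The amidohydrolases ILL6 and IAR3, which split the conjugate, differed by 4.1 ± 0.09 and 2.72 ± 0.07 on the log2 scale. JOX1 was the member that was not called, with at most 24.9 in any of these libraries.

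The list of the receptor, the MYC factors and their output genes had 5 of 10 genes higher and 2 lower (median 1.24), with 1 lower without chr11/17 replicate 1, arid5 replicate 1 or rlt1/2 replicate 1 and with DESeq2. COI1 was slightly lower, at 945 and 996 in chr11/17 against 1185 and 1108 in arid5 and 1116 and 1024 in rlt1/2 (-0.19, adjusted p = 0.0225). MYC3 and MYC4 did not pass, with differences of 0.14 and -0.11, and MYC2 was not among the 10 genes tested. The output genes of the MYC branch, which serve defence against chewing insects, were higher: VSP1 had 2923 and 3471 in chr11/17, against 187 and 155 in arid5, 386 and 592 in rlt1/2 and 222 and 146 in WT (3.43 ± 0.19). VSP2 (2.41 ± 0.14) and CORI3 (2.49 ± 0.18), further jasmonate response genes, were higher too. ORA59, a factor of the ethylene-dependent branch, was lower, at 48.9 and 40 in chr11/17, against 143 and 175 in arid5, 130 and 155 in rlt1/2 and 19.3 and 41.2 in WT (-1.56, adjusted p = 0.000103). ERF1, another factor of that branch, was higher, at 76.0 and 38.8 in chr11/17, against 14.5 and 22.7 in arid5, 29.95 and 27.7 in rlt1/2 and 9.44 and 7.32 in WT (0.97 ± 0.24, adjusted p = 0.00468). Its output gene PDF1.2 was not called, with unlike chr11/17 libraries at 7.03 and 137.5 (adjusted p = 0.0802). The members of the ethylene-dependent branch thus did not share a direction.

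**Figure D2:**
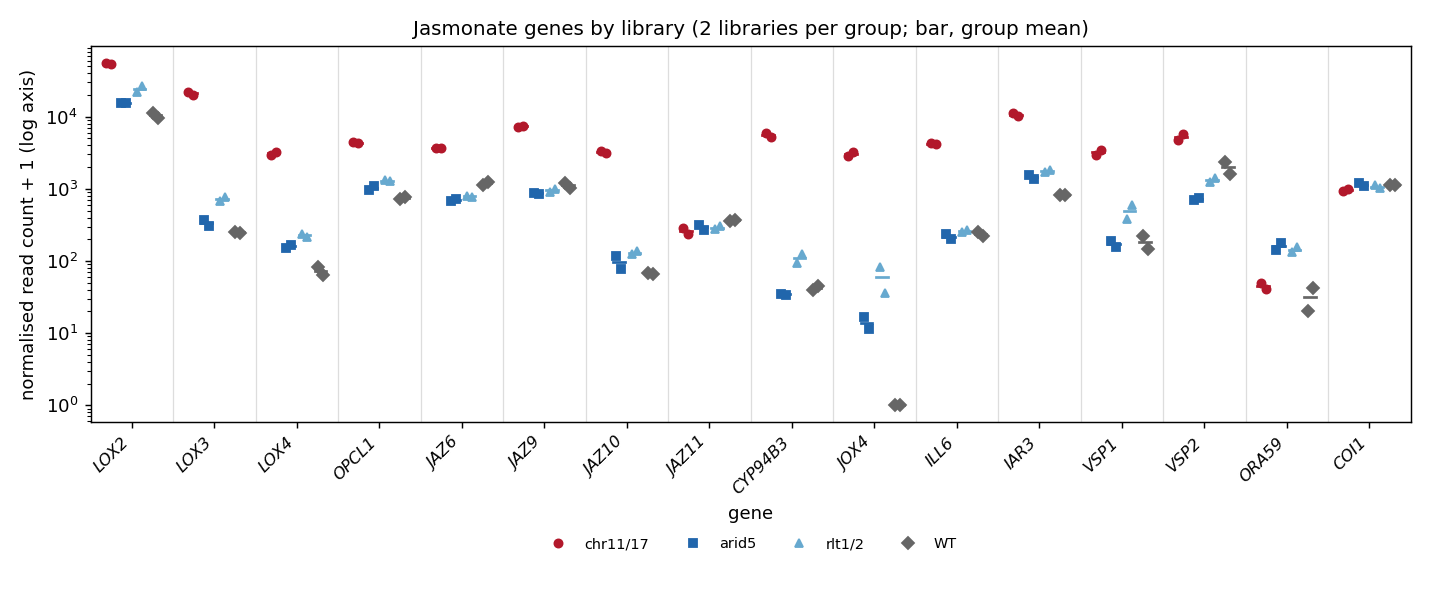
Normalised read count + 1 on a log axis for 16 jasmonate genes, with 1 point for each library and a bar at each group mean. The chr11/17 points lie above all other libraries in 13 of the genes shown and below the accessory mutants in ORA59 and COI1; the exception with overlapping groups is JAZ11.

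The 250 bases before the RefSeq gene start (TAIR10.1) were read for the G-box CACGTG, the DNA word to which MYC and other bHLH or bZIP factors bind and which reads the same on both strands. It was present in 7.31% of the promoters of 21185 genes tested, in 12.4% of the 2296 called higher by more than 2-fold and in 6.32% of the 2436 called lower by more than 2-fold. The 4 jasmonate lists held it in 8 of 48 promoters (16.7%). The lists of the light reactions and the Calvin cycle, whose genes moved the other way, held it in 11 of 62 (17.7%). Shown for sight of the element are the 3 members of the jasmonate lists and the 2 of the photosynthesis lists with the largest differences among those with a G-box and no other annotated gene in the window, written in the direction of transcription, with the G-box in capitals.
JAZ8 (chr1:10596102-10596351, plus strand): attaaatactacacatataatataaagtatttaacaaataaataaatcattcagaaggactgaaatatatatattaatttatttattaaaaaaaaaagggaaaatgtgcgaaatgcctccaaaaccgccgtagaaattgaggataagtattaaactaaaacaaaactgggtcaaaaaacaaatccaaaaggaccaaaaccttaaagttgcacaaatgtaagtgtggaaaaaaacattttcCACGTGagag
JAZ7 (chr2:14572780-14573029, plus strand): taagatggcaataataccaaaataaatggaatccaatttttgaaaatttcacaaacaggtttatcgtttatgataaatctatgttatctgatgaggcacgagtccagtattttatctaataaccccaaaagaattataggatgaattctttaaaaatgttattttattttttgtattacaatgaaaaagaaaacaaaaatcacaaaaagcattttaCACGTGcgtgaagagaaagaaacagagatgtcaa
JAZ2 (chr1:28150447-28150696, minus strand): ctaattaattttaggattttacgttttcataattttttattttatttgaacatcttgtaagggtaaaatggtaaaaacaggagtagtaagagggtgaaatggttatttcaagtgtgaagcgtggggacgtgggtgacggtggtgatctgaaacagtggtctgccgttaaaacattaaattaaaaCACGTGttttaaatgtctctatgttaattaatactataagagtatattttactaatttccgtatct
LHCB2.3 (chr3:10255656-10255905, plus strand): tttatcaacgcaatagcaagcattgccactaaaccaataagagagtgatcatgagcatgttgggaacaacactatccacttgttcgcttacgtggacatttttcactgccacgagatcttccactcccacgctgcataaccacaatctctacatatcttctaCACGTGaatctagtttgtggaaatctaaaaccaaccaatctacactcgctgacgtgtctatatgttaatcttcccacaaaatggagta
RBCS2B (chr5:15382072-15382321, minus strand): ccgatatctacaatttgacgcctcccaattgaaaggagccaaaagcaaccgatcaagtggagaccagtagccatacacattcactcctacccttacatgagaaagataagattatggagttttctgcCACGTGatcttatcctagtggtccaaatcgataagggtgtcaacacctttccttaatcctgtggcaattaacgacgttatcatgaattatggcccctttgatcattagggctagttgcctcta
JAZ8 had 133 and 149 in chr11/17, against 7.76 and 4.65 in arid5 and 4.98 and 5.11 in rlt1/2, a log2 difference of 3.28. LHCB2.3 and RBCS2B, which hold the same word, were lower in chr11/17, as given with the photosynthesis genes. A match is a description of the letters and not of a bound site.

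Photosynthesis genes were lower in chr11/17 throughout. All 39 nuclear genes of the light reactions that were tested were called lower by more than 2-fold, with a median log2 difference of -1.47 and a range of -3.28 to -1.02. Of the 23 genes of the Calvin cycle and photorespiration, 22 were called lower and 17 by more than 2-fold (median -1.21), and all 16 tested genes of chlorophyll synthesis and greening were called lower, 11 by more than 2-fold (median -1.26). The genes of the light reactions took 2.2 and 3.33% of reads in chr11/17, against 8.24 and 9.08% in arid5, 8.54 and 7.39% in rlt1/2 and 14.7 and 14.2% in WT. The accessory mutants lay between chr11/17 and WT, with no overlap (exact permutation p = 0.133 against the accessory mutants, the smallest possible). In the Calvin cycle list the shares were 1.2 and 1.69% in chr11/17, against 4.0 and 4.29% in arid5, 3.63 to 4.30% in rlt1/2 and 5.97% in both WT libraries.

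LHCB2.3 (AT3G27690), a light-harvesting protein of photosystem II, had 981 and 2382 in chr11/17, against 13800 and 15490 in arid5, 16740 and 13960 in rlt1/2 and 46520 and 44390 in WT. It was 0.112 times the level of the accessory mutants (-3.28 ± 0.26, adjusted p = 1.76e-06), and the difference between the 2 chr11/17 libraries was large beside those within other groups. The LHCB and RBCS families have near-identical copies, among which reads may have been split, and LHCB2.3 overlaps a neighbouring gene. LHCB2.2 differed by -2.36 ± 0.19. The plastocyanin gene PETE1 had 816 and 1173 in chr11/17, against 3225 and 3636 in arid5, 3541 and 3066 in rlt1/2 and 6481 and 6110 in WT (-1.77 ± 0.12). RBCS2B, a small subunit of the carbon-fixing enzyme Rubisco, had 5942 and 9060, against 26220 and 32450, 29010 and 25360, and 66270 and 66210 in the same order of groups (-1.94 ± 0.16). In each of these genes chr11/17 was lowest and WT highest. Replicate 1 of chr11/17 was the lower of its 2 libraries in these genes: without it the list median was -1.2, and without replicate 2 it was -1.75, with 39 of 39 genes called lower in both cases.

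The photorespiratory enzymes HPR1 and GLYK differed by -1.25 ± 0.11 and -1.06 ± 0.09. Among the greening genes, CAO, which makes chlorophyll b, had 1707 and 2023 in chr11/17, against 6461 and 6918 in arid5, 6633 and 5562 in rlt1/2 and 11630 and 11270 in WT (-1.77 ± 0.09, adjusted p = 8.07e-08). GLK2, a transcription factor that switches on chloroplast genes, had 903 and 1231 in chr11/17, against 3993 and 4589 in arid5, 3522 and 3249 in rlt1/2 and 7425 and 7033 in WT (-1.84 ± 0.11). CHLM, a methyltransferase of chlorophyll synthesis, was lower by a similar amount (-1.64 ± 0.12). Both GLK2 and CAO fell to their lowest level in chr11/17, with arid5 and rlt1/2 between chr11/17 and WT.

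**Figure D3:**
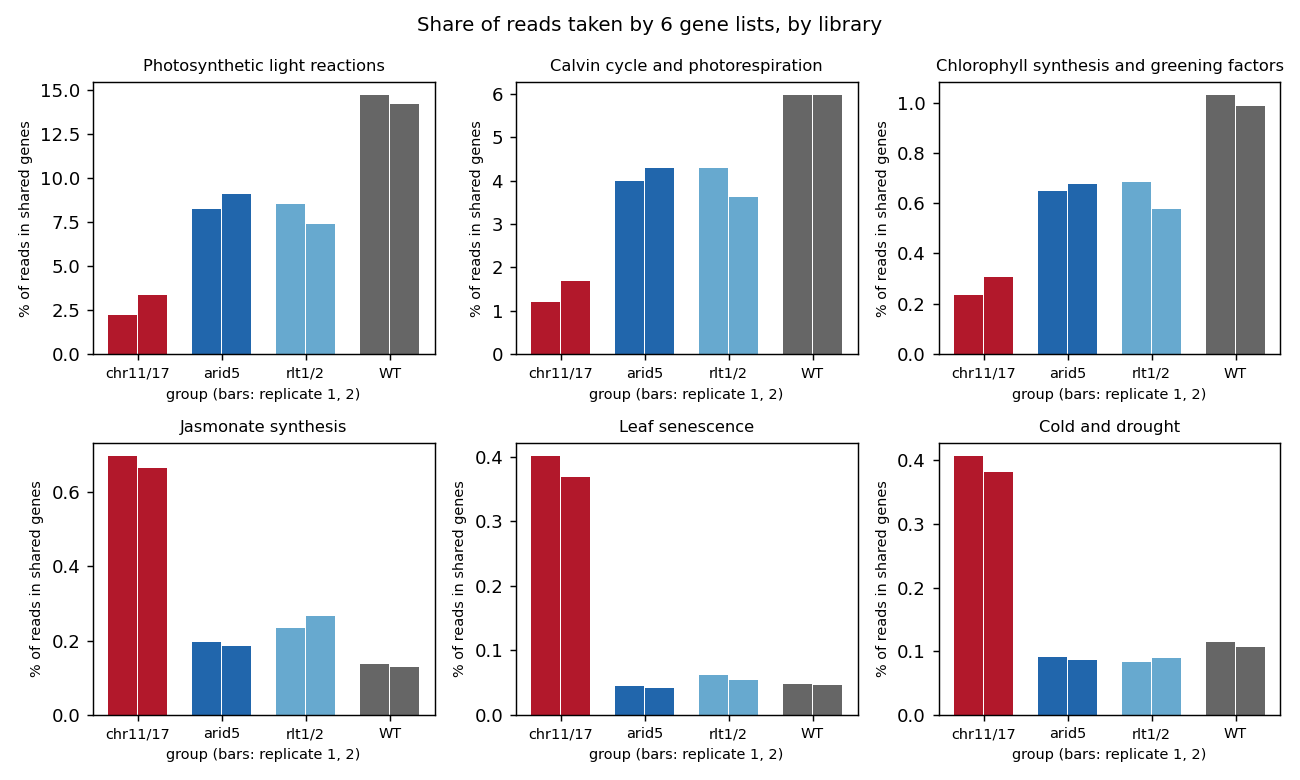
Bars give the percentage of a library's reads in the 22636 shared genes that fell in each of 6 gene lists, with the 2 replicates of a group side by side. Photosynthesis and chlorophyll lists were lowest in chr11/17 (2.2 and 3.33% for the light reactions), whereas jasmonate synthesis, senescence and cold and drought lists were highest there.

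Leaf senescence genes were higher in chr11/17. Of 14 tested, 12 were called higher and 11 by more than 2-fold, with a median of 1.59. SAG13, a dehydrogenase used as an early senescence marker, had 56600 and 50960 in chr11/17, against 249 and 166 in arid5, 3042 and 1326 in rlt1/2 and 266 and 162 in WT. The difference was 7.98 against arid5 and 4.73 against rlt1/2, so the fold over the pooled accessory mutants, 45, lies between unlike values. ANAC072, a NAC factor of abscisic acid responses and leaf ageing, had 4815 and 4441 in chr11/17, against 358 and 381 in arid5, 399 and 379 in rlt1/2 and 540 and 522 in WT (3.57 ± 0.07, adjusted p = 7.31e-10). The related ANAC055 (3.43 ± 0.13) and the factor WRKY6 (2.47 ± 0.09) were higher too. In ANAC072 the accessory mutants lay below WT and chr11/17 lay far above it. NAP and SEN1 were not called, and SAG12, a late senescence marker, had 19.0 and 32.6 in chr11/17 and at most 5.91 in any accessory mutant library, so it entered the test only through chr11/17.

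Genes of cold and drought protection were also higher than in the accessory mutants. Of 17 tested, 13 were called higher, with 10 over 2-fold and a median of 1.77. RD29A, a classical drought and cold response gene, had 10030 and 10800 in chr11/17, against 773 and 804 in arid5, 746 and 672 in rlt1/2 and 1817 and 1550 in WT (3.78 ± 0.08, adjusted p = 7.85e-10). RD20, a calcium-binding lipid droplet protein, had 25950 and 21950, against 574 and 492, 1262 and 1130, and 1577 and 1090 in the same order (4.89 ± 0.13), and the dehydrin ERD10 differed by 2.77 ± 0.06. NCED3, the rate-limiting enzyme of abscisic acid synthesis under drought, which was singled out after its values were seen, had 1987 and 2227 in chr11/17, against 119 and 142 in arid5, 200 and 180 in rlt1/2 and 437 and 343 in WT. In RD29A and NCED3, chr11/17 was above WT and the accessory mutants were below it. Of the CBF factors, which respond to cold, CBF2 was not called and CBF3 was higher by 0.51. Not every member lay above WT. RD22 had 10990 and 8594 in chr11/17 against 10060 and 8735 in WT, and COR413-PM1 3483 and 3643 against 4109 and 4105. RAB18 and COR15B, which were not called, were below WT. RAB18 had 407 and 272 in chr11/17 against 1331 and 1034 in WT, and COR15B 18.9 and 57.6 against 236 and 188.

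KIN1, another cold-induced gene with a near-identical neighbour, had 280 and 294 in chr11/17, against 74.5 and 77.0 in arid5, 58.5 and 35.7 in rlt1/2 and 306 and 289 in WT, so here chr11/17 was at the WT level and the accessory mutants below it. The heat shock list had 11 of 15 genes higher and none lower (median 1.02, 9 over 2-fold). Its members HSFB1 (1.44 ± 0.07) and DREB2A (2.42 ± 0.19) are transcription factors of heat and drought responses. The small heat shock protein gene HSP17.6A had 102 and 110 in chr11/17, against 2.88 and 5.67 in arid5 and 5.72 and 10.5 in rlt1/2. It is among 3 genes of the list that passed the filter on low values only through chr11/17.

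Flavonoid and anthocyanin genes were higher in 15 of 19 cases and lower in 3 (median 1.02, with 11 over 2-fold higher and 1 lower). The activator gene PAP2 is among those higher and entered the test only through chr11/17. PAP1, the MYB factor that activates anthocyanin pigment genes, had 1454 and 1205 in chr11/17, against 59.1 and 51.5 in arid5, 101 and 104 in rlt1/2 and 33.5 and 24.1 in WT (3.96 ± 0.14, adjusted p = 1.17e-08). MYBL2, a repressor of the same genes, had 194 and 240 in chr11/17, against 1006 and 954 in arid5, 902 and 727 in rlt1/2 and 2116 and 2233 in WT (-2.00 ± 0.10). The activator was highest and the repressor lowest in chr11/17. PAL1, which opens the phenylpropanoid pathway, differed by 1.34 ± 0.07.

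The glucosinolate pathways, which make defence compounds of the cabbage family, went in different directions. The indole branch had 7 of 9 genes higher and none lower (median 1.13), and the aliphatic branch had 9 of 13 lower and none higher (median -0.76). CYP79B2, the P450 that commits tryptophan to the indole branch, had 5848 and 5886 in chr11/17, against 2149 and 1745 in arid5, 1849 and 1978 in rlt1/2 and 1324 and 1389 in WT (1.60 ± 0.08). MYB29, an activator of the aliphatic branch, had 226 and 266 in chr11/17, against 703 and 623 in arid5, 596 and 465 in rlt1/2 and 1141 and 977 in WT (-1.23 ± 0.12). In both genes the 4 accessory mutant libraries lay between chr11/17 and WT. MYB28, its close relative, differed by -1.15 ± 0.11, the glycosyltransferase UGT74C1 by -1.09 ± 0.10, and the indole branch enzymes CYP83B1 and SOT16 by 1.46 ± 0.07 and 1.51 ± 0.06.

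Salicylic acid defence was mixed, with 7 of 19 genes higher and 11 lower (median -0.33, with 6 higher and 4 lower by more than 2-fold). The lower genes numbered 7 without chr11/17 replicate 1 and 7 with DESeq2. ICS1, the main enzyme of salicylic acid synthesis, had 203 and 230 in chr11/17, against 545 and 558 in arid5, 551 and 622 in rlt1/2 and 612 and 594 in WT (-1.35 ± 0.08, adjusted p = 3.18e-07). EDS5, the transporter of its product, was higher, at 838 and 905 in chr11/17, against 363 and 291 in arid5, 311 and 370 in rlt1/2 and 172 and 174 in WT (1.36 ± 0.11). PR1, a marker of this defence, had 1301 and 1587 in chr11/17, against 50.5 and 23.1 in arid5 and 56.2 and 28.2 in rlt1/2, but its WT libraries differed from each other, at 819 and 83.1. WRKY54, a factor that tempers leaf ageing, was lower by 2.32 ± 0.19.

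Growth genes were mostly lower. Of 20 genes of auxin response and conjugation, 14 were lower and 5 higher (median -0.93, with 10 lower and 5 higher by more than 2-fold). The 6 genes SAUR19 to SAUR24, which drive cell expansion and were singled out after their values were seen, had 0 to 13.5 in chr11/17, against 15.4 to 152 in arid5, 15.2 to 127 in rlt1/2 and 69.8 to 432 in WT. They are close copies, among which reads may have been split, and SAUR22 had no reads in chr11/17. The genes for GH3 enzymes, which inactivate auxin by joining it to amino acids, were higher: GH3.3 had 8045 and 8822 in chr11/17, against 363 and 341 in arid5, 386 and 523 in rlt1/2 and 116 and 99 in WT (20.9-fold, 4.37 ± 0.12, adjusted p = 2.2e-09). GH3.2 (3.15 ± 0.19) and GH3.5 (2.51 ± 0.10) had the same direction, and in all 3 genes chr11/17 lay above every other library.

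Expansins loosen the cell wall during growth. Of the 10 shoot alpha-expansin genes, 7 were lower and 3 higher (median -1.07, with 5 lower and 1 higher by more than 2-fold). EXPA8 had 38.1 and 62.2 in chr11/17, against 1272 and 1455 in arid5, 900 and 1013 in rlt1/2 and 4605 and 5204 in WT. It was 23.1-fold lower in chr11/17 than in the accessory mutants (-4.29 ± 0.14, adjusted p = 7e-09). HBI1, a bHLH factor that promotes cell elongation, had 57.2 and 94.7 in chr11/17, against 1237 and 1583 in arid5, 1262 and 1241 in rlt1/2 and 2356 and 2346 in WT (17.5-fold lower, -3.99 ± 0.15). EXPA6 (-1.0 ± 0.10) and EXPA3 (-1.59 ± 0.14) are 2 further expansins. EXPA8 and HBI1 had their lowest level in chr11/17 and their highest in WT.

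The CIN-type TCP factors, which end cell division in the growing leaf blade, had 4 of 8 genes lower and 1 higher (median -0.45). Of these, 1 in each direction differed by more than 2-fold. TCP4 had 258 and 347 in chr11/17, against 691 and 764 in arid5, 820 and 674 in rlt1/2 and 1224 and 1114 in WT (-1.27 ± 0.12). TCP10 was lower by the same test (-0.97 ± 0.07). TCP13 was the higher one, at 2309 and 1934, against 405 and 333, 384 and 443, and 317 and 290 in the same order of groups (2.41 ± 0.11). Of the leaf polarity genes, which tell the upper from the lower leaf face, 8 of 15 were lower and 2 higher, or 4 higher after quantile normalization (median -0.21). By more than 2-fold, 2 were lower and 0 higher. YAB3, a gene of the lower face, had 82.1 and 127 in chr11/17, against 378 and 434 in arid5, 419 and 331 in rlt1/2 and 879 and 842 in WT (-1.82 ± 0.15). FIL, its close relative, was lower too (-0.76 ± 0.10), while PHV, a gene of the upper face, was higher (0.87 ± 0.07). The other gene called higher was YAB2, a relative of YAB3 (0.64 ± 0.10). REV (-0.35), ATHB15 (-0.51) and ATHB8 (-0.21), relatives of PHV, were lower, and PHB, KAN1 and KAN2 were not called. The genes of a face thus did not share a direction.

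Genes of the shoot meristem and organ boundaries were higher in 8 of 13 cases and lower in 2 (median 0.66, with 5 higher and 2 lower by more than 2-fold). CUC1, which keeps organs apart, had 114 and 108 in chr11/17, against 18.4 and 18.8 in arid5, 28.3 and 23.2 in rlt1/2 and 4.26 and 6.21 in WT (1.92 ± 0.17). LOB, a boundary gene, had 157 and 152, against 25.9 and 53.9, 36.7 and 29.7, and 93.5 and 81.3 in the same order (1.85 ± 0.22). STM, the meristem homeobox gene, was higher at 128 and 139 in chr11/17, against 47.3 and 56.4 in arid5, 52.5 and 45.1 in rlt1/2 and 41.0 and 35.4 in WT. CLV1, the receptor that limits meristem size, was lower (-1.04 ± 0.08). Of 18 mitotic genes, 11 were lower and 1 higher (median -0.53, with 3 lower and 1 higher by more than 2-fold). The median was -0.38 without chr11/17 replicate 1 and -0.79 without chr11/17 replicate 2. The cyclin CYCB1;2 (-1.03 ± 0.14) and the activator of anaphase CDC20.1 (-0.95 ± 0.13) were lower. CYCB1;1, a cyclin that is also induced by DNA damage, had 399 and 387 in chr11/17, against 195 and 144 in arid5, 170 and 171 in rlt1/2 and 150 and 122 in WT (1.17 ± 0.14).

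**Figure D4:**
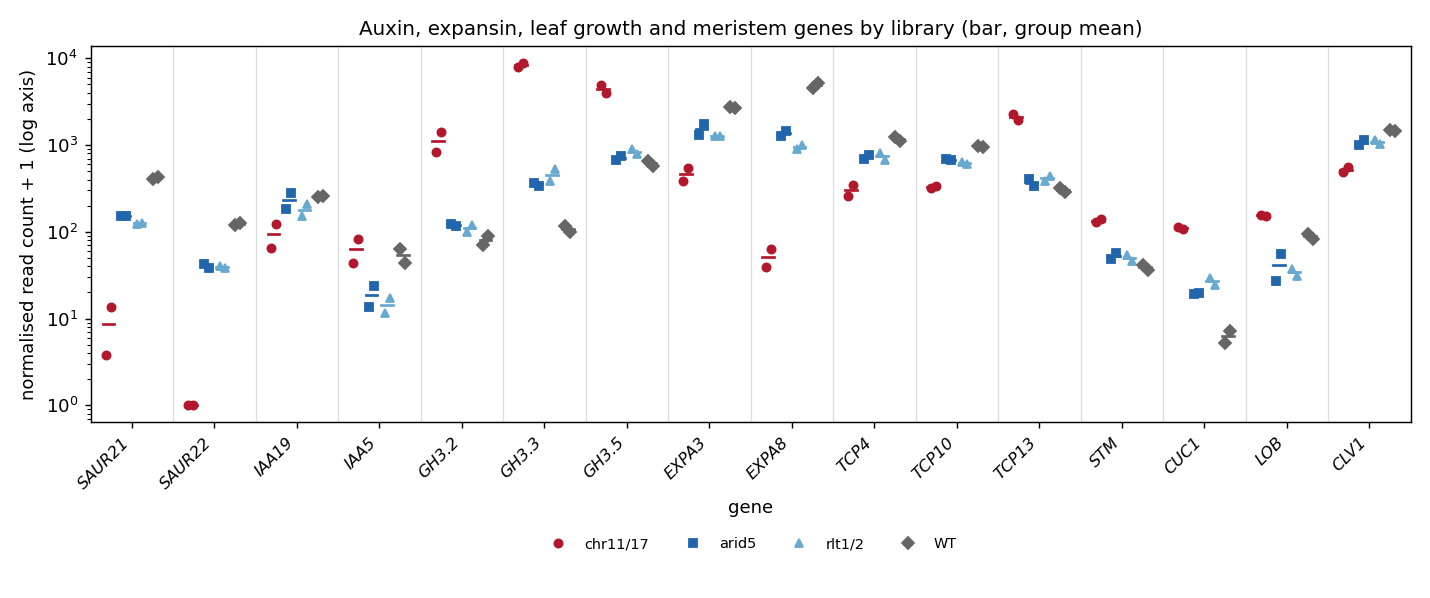
Normalised read count + 1 on a log axis for 16 genes of auxin, cell wall growth, leaf growth and the meristem, with 1 point for each library and a bar at each group mean. SAUR21, SAUR22 and EXPA8 have their lowest points in chr11/17, whereas GH3.2, GH3.3, GH3.5, TCP13, STM and CUC1 have their highest there.

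The series concerns the change to flowering. FT, the mobile signal that starts flowering, had 20.0 and 29.7 in chr11/17, against 85.3 and 56.0 in arid5, 62.8 and 90.2 in rlt1/2 and 10.8 and 22.7 in WT. Its level in chr11/17 overlapped WT and lay below all 4 accessory mutant libraries (-1.25 ± 0.25, adjusted p = 0.00116). SOC1, which integrates flowering signals, had 338 and 377, against 486 and 458, 447 and 417, and 1104 and 950 in the same order (-0.33 ± 0.09, adjusted p = 0.0063, and 0.0575 without chr11/17 replicate 1). FLC, the main repressor of FT, had 1 read over the chr11/17 libraries and 1 over the 4 accessory mutant libraries, so no fold is given, against 15.9 and 20.7 normalised reads in WT. Its whole span is also covered by an annotated gene on the other strand.

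Of 13 flowering promoters tested, 7 were lower and 2 higher (median -0.47, with 5 lower and 0 higher by more than 2-fold). None was higher with equal library totals or with the tables as deposited. Only 1 was higher with DESeq2, a pseudocount of 1, quantile normalization, no filter on low values, the 6 mutant libraries alone or the accessory libraries as 1 group. The count stayed at 2 with edgeR, with the filter at 50 and with the replicate block. It also fell when any single library but arid5 replicate 1 was left out. Over the alternatives the median ran from -1.25 to -0.28. FD, the partner of FT in the meristem, had 18 and 15.2 in chr11/17, against 51.3 and 45.9 in arid5, 68.2 and 65.0 in rlt1/2 and 38.7 and 26.2 in WT (-1.33 ± 0.18). AGL42, a relative of SOC1, had 31.6 and 31.5 in chr11/17, against 177 and 155 in arid5, 171 and 191 in rlt1/2 and 56.5 and 102 in WT (-2.14 ± 0.20). SPL9, which marks the passage to the adult phase, was lower by 1.43 ± 0.20. For FD and AGL42, chr11/17 was below WT and both accessory mutants were above it.

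The repressors of flowering had 5 of 23 genes higher and 7 lower, with 2 higher and 4 lower by more than 2-fold. Their median of -0.04 changed sign under 4 of the alternatives. The lower genes numbered 4 when each chr11/17 library was left out in turn and with DESeq2. SVP, a MADS-box repressor of FT, had 197 and 435 in chr11/17, against 1352 and 1471 in arid5, 1404 and 1181 in rlt1/2 and 2538 and 2464 in WT (-2.16 ± 0.23, adjusted p = 1.25e-05). TEM2, another repressor of FT, had 500 and 458, against 2253 and 3089, 2507 and 2674, and 2222 and 2843 in the same order (-2.43 ± 0.13). SMZ, an AP2-type repressor, was higher, at 345 and 355 in chr11/17, against 77.4 and 70.3 in arid5, 67.3 and 68.8 in rlt1/2 and 57.1 and 72.6 in WT (2.15 ± 0.14). For TEM2 and SMZ the accessory mutants were at the WT level and chr11/17 alone stood apart. SMZ overlaps a neighbouring gene on the other strand.

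Floral identity genes, MADS-box factors that set the organs of the flower, differed gene by gene. Of 11, 4 were higher and 2 lower, against 32.7% and 36.8% of all genes. By more than 2-fold, 4 were higher and 1 lower, and the median of 0.06 changed sign under 3 alternatives. A stricter filter at 50 left 1 lower. SEP2 had 335 and 300 in chr11/17, against 8.67 and 13.2 in arid5, 10.0 and 7.18 in rlt1/2 and 7.42 and 9.33 in WT. It was high in chr11/17 only (32.5-fold, 4.06 ± 0.18, adjusted p = 3.22e-08). SEP3, its relative, had 1643 and 1687 in chr11/17, against 2689 and 1973 in arid5, 1970 and 2530 in rlt1/2 and 153 and 189 in WT, so all 3 mutant groups were far above WT and chr11/17 was the lowest of them (-0.44 ± 0.14, adjusted p = 0.0134). SEP1 was alike in the mutants, at 298 and 237 in chr11/17, against 212 and 178 in arid5, 217 and 253 in rlt1/2 and 9.60 and 15.5 in WT (adjusted p = 0.117). It passed with edgeR (0.0437) and after quantile normalization (0.0489).

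AP3, which specifies petals and stamens, had 856 and 627 in chr11/17, against 237 and 200 in arid5, 325 and 422 in rlt1/2 and 8.36 and 5.26 in WT (1.33 ± 0.17, adjusted p = 4.23e-05). Its order was chr11/17, rlt1/2, arid5 and WT. The ovule gene STK had 89.3 and 61.8 in chr11/17, against 4.86 and 1.83 in arid5, 6.51 and 13.5 in rlt1/2 and 5.23 and 3.16 in WT (2.38 ± 0.23). It entered the test only through chr11/17, and it overlaps a gene on the other strand that was itself higher, at a mean of 320 in chr11/17 against 133 in the accessory mutants. SHP1, a fruit gene, was higher by 1.38 ± 0.25 and also overlaps other genes. AG, which specifies stamens and carpels, had no reads in the 2 chr11/17 libraries and 73 over the 4 accessory mutant libraries, which makes it at least 5.45-fold lower against 3 reads per library. Its levels were 13.5 and 16.0 in arid5, 15.8 and 16.9 in rlt1/2 and 12.5 and 6.35 in WT. PI, FUL, SEP4 and SHP2 were not called, with differences of -0.10, 0.06, -0.28 and -0.14.

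**Figure D5:**
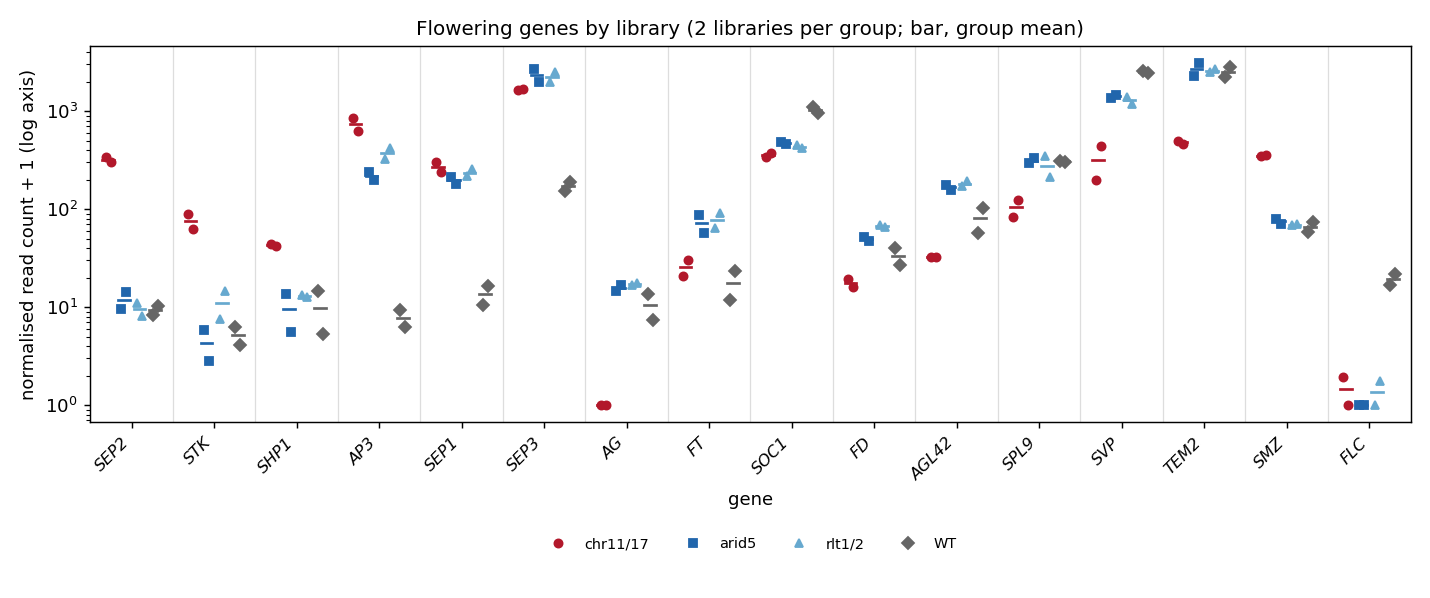
Normalised read count + 1 on a log axis for 16 flowering genes, with 1 point for each library and a bar at each group mean. SEP2, STK, SHP1 and SMZ are high in chr11/17 alone, AG is at 0 there, FT is highest in arid5 and rlt1/2, and FLC is near 0 in all 3 mutant groups.

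Clock genes had 5 of 20 higher and 8 lower, near the shares over all genes of 32.7% and 36.8%. In each direction 3 differed by more than 2-fold, and the median of 0.00 changed sign under 7 alternatives. PRR9, a morning repressor of the clock, had 2641 and 2696 in chr11/17, against 816 and 697 in arid5, 734 and 678 in rlt1/2 and 1375 and 1218 in WT (1.86 ± 0.08, adjusted p = 2.76e-08). PRR5, which acts later in the day, had 332 and 311, against 73.7 and 52.3, 70.4 and 87.6, and 39.0 and 41.6 in the same order (2.05 ± 0.16). CHE, a TCP protein that represses CCA1, was lower, at 287 and 376 in chr11/17, against 881 and 1049 in arid5, 832 and 842 in rlt1/2 and 1299 and 1269 in WT (-1.42 ± 0.10). For PRR9, chr11/17 lay above WT and the accessory mutants lay below it. The hour of collection is not in the labels.

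Starch genes had 10 of 17 higher and 3 lower (median 0.34), or 5 lower with equal library totals, with quantile normalization or without rlt1/2 replicate 2. APL3, a subunit of the enzyme that feeds starch synthesis, had 11570 and 8941 in chr11/17, against 1719 and 1693 in arid5, 2277 and 2175 in rlt1/2 and 904 and 788 in WT (2.38 ± 0.10). The amylases BAM1 (2.13 ± 0.10) and BAM3 (1.79 ± 0.07), which degrade starch, were higher too. Of 20 iron genes, 12 were lower and 3 higher (median -0.55, with 7 lower and 0 higher by more than 2-fold), and 7 were lower against arid5 alone. FIT, the bHLH factor of iron uptake in roots, had 32.7 and 21.8 in chr11/17, against 263 and 214 in arid5, 173 and 274 in rlt1/2 and 127 and 115 in WT (-2.69 ± 0.20). BTSL1, a ligase that limits the iron response, was lower by 2.40 ± 0.12. F6'H1, which makes the coumarins that mobilise iron, had 410 and 387 in chr11/17, against 1365 and 1298 in arid5, 1235 and 1507 in rlt1/2 and 396 and 377 in WT (-1.73 ± 0.08), so chr11/17 was at the WT level and the accessory mutants above it.

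Phosphate starvation genes had 8 of 11 lower and 2 higher (median -0.85, with 5 lower and 2 higher by more than 2-fold). MGD3, which makes galactolipids when phosphate is short, had 3.78 and 9.60 in chr11/17, against 199 and 316 in arid5, 230 and 319 in rlt1/2 and 134 and 165 in WT (39.8-fold lower, -4.04 ± 0.22, adjusted p = 1.4e-07). MGD2, its relative, was lower by 1.92 ± 0.12. PHT1;4, a phosphate transporter, was higher, at 1605 and 1818 in chr11/17, against 756 and 715 in arid5, 733 and 846 in rlt1/2 and 836 and 827 in WT (1.16 ± 0.08). The lipid enzymes and the transporter thus differed in opposite directions, and in none of the 3 did chr11/17 overlap another group.

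Other chromatin remodellers were lower in chr11/17 in 11 of 15 cases and higher in none, with a median of -0.58. Only 1 was lower by more than 2-fold. Over all genes tested, 36.8% were called lower, and 11.5% by more than 2-fold. CHR23, a SWI/SNF ATPase, had 146 and 194 in chr11/17, against 515 and 493 in arid5, 542 and 465 in rlt1/2 and 711 and 712 in WT (-1.52 ± 0.11, adjusted p = 9.8e-07). PKL, a CHD remodeller that represses embryonic genes, had 1631 and 1759, against 3208 and 3132, 3377 and 3025, and 3147 and 3039 in the same order (-0.91 ± 0.06). INO80, the ATPase of another complex, was lower by 0.72 ± 0.07. For PKL the accessory mutants were at the WT level and chr11/17 alone was lower. Polycomb genes, which keep developmental genes silent, had 3 of 12 higher and 5 lower, near the shares over all genes of 32.7% and 36.8%. All differed by less than 2-fold, with 2 lower under DESeq2 and up to 7 under other alternatives. FIE was lower (-0.69 ± 0.11), and VRN2 (0.56 ± 0.07) and MSI1 (0.41 ± 0.06) were higher.

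By size alone, the largest difference was that of ELI3-2, an alcohol dehydrogenase of defence, with 16200 and 13810 in chr11/17, against 25.3 and 6.34 in arid5, 200 and 117 in rlt1/2 and 6.32 and 6.25 in WT (7.90 ± 0.28, adjusted p = 9.83e-09). GSTU3, a glutathione transferase, had 4536 and 4086, against 9.70 and 6.52, 124 and 19.0, and 1.04 and 0.01 in the same order (7.01 ± 0.45). Their rlt1/2 libraries were above those of arid5 and, for GSTU3, unlike each other. CYP76C2 (6.87), CYP82G1, which makes a volatile terpene (6.27), DXPS1 (6.26), the transporter UMAMIT25 (6.25), AT1G09500 (6.23), the secreted amylase AMY1 (5.83) and the cellulose synthase-like CSLG2 (5.81) complete the 12 largest with SAG13, JOX4 and CYP94B3. DXPS1, named for a first step of plastid isoprenoid synthesis, had 15220 and 13570 in chr11/17, against 84.6 and 25.6 in arid5, 737 and 476 in rlt1/2 and none in WT.

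The largest differences below the accessory mutants were those of AT3G22235 (-5.58 ± 0.20) and its neighbour PCC1 (-4.82 ± 0.17). AT3G22235 had 2.83 and 6.72 in chr11/17, against 535 and 794 in arid5, 888 and 595 in rlt1/2 and 628 and 496 in WT. PCC1 had 1 read in the 2 chr11/17 libraries and 1365 in the 4 accessory mutant libraries, a ratio of 612 with an exact 95% interval of 110 to 24200 for counting error only. In both genes the accessory mutants were at or above WT. BBX14, a B-box factor, had 257 and 298 in chr11/17, against 4839 and 5602 in arid5, 5498 and 4409 in rlt1/2 and 4606 and 5123 in WT (-4.15 ± 0.10), and SUS4, a sucrose synthase of low oxygen, differed by -4.17 ± 0.24. AT3G05727, AT4G22490, AT1G29600, AT1G31690 and AT3G16670 lay between -4.48 and -4.22, and AT3G16670 had unlike chr11/17 libraries, at 0 and 58.8.

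In some genes the mutants left WT in opposite directions. MYB47 had 1527 and 1445 in chr11/17, against 77.5 and 63.7 in arid5, 90.3 and 52.2 in rlt1/2 and 350 and 278 in WT (4.23 ± 0.18), and HAI2, a phosphatase of abscisic acid signalling, had 411 and 391, against 30.1 and 15.8, 24.3 and 11.9, and 139 and 69.4 in the same order (3.79 ± 0.28). In both, WT lay above the accessory mutants and below chr11/17. AT1G52000 was alike, with 9332 and 9249 in chr11/17, against 302 and 334 in arid5, 664 and 600 in rlt1/2 and 1877 and 1469 in WT. In the other direction, CYP702A5 had 207 and 216 in chr11/17, against 2588 and 2227 in arid5, 2054 and 2284 in rlt1/2 and 804 and 696 in WT (-3.37 ± 0.09). GLR2.2, a glutamate receptor-like channel, had 1 read over both chr11/17 libraries and 506 over the accessory mutants, a ratio of 227 (exact 95% interval 40.5 to 8970). AT3G29410 and AT3G47040 differed by -3.50 ± 0.26 and -3.79 ± 0.20, and WT lay between the groups in these genes too.

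In other genes the mean of chr11/17 was within 1.2 times that of WT, and the accessory mutants stood apart. The peroxidase Prx37 had 269 and 324 in chr11/17, against 1123 and 1303 in arid5, 1117 and 1136 in rlt1/2 and 330 and 346 in WT (-1.95 ± 0.09). AT4G33720 had 1153 and 876, against 6773 and 7580, 7080 and 7105, and 915 and 1421 in the same order (-2.81 ± 0.15). In these 2 genes both accessory mutants were raised. AT5G52720 differed by -2.13 ± 0.18, and CRK30, a receptor-like kinase, by -2.62 ± 0.51. For CRK30 the chr11/17 libraries were unlike, at 4.39 and 72.2, on either side of WT at 26.6 and 41.4. AT1G22890 had 343 and 287 in chr11/17, against 75.3 and 109 in arid5, 100 and 64.0 in rlt1/2 and 351 and 344 in WT (1.76 ± 0.18), and AT5G38240 differed by 1.70 ± 0.20, so here the accessory mutants were the lower ones.

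The accessory mutants seldom differed from each other, and 54 of the 60 genes at which they did were higher in rlt1/2 (0.255% of all tested), leaving 6 that were higher in arid5 (0.0283%). In 41 of the 60, both chr11/17 libraries lay above all 4 accessory mutant libraries, and in 12 they lay below. Over all genes tested the shares were 36% above and 40.1% below. LOX3, CYP94B3, VSP1, SAG13, ELI3-2, CSLG2, AMY1, DXPS1, RD20 and AT1G52000 are named genes of the 60, with chr11/17 highest and rlt1/2 above arid5 in each. In EXT10, EXT12, EXT13 and HRGP1, picked after their values were seen, rlt1/2 was also above arid5 but chr11/17 was below both. EXT10 had 311 and 309 in chr11/17, against 633 and 559 in arid5 and 1178 and 1081 in rlt1/2.

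Markers of other tissues were measured because whole seedlings hold several. Of 17 root markers, 8 were lower in chr11/17 and 2 higher (median -0.32). The higher ones numbered 4 without rlt1/2 replicate 2 and 1 without chr11/17 replicate 1, without arid5 replicate 2 or with equal library totals. The root markers took 0.367 and 0.345% of reads in chr11/17, against 0.303 and 0.257% in arid5, 0.261 and 0.348% in rlt1/2 and 0.112 and 0.121% in WT. The groups overlapped. PYK10 made up nearly all of this sum, at 85480 and 78790 in chr11/17, 62940 and 53790 in arid5, and 53860 and 69820 in rlt1/2. No other root marker passed 1651 in any library. PYK10 was itself called higher (0.46 ± 0.15, adjusted p = 0.0175). The sum therefore follows PYK10 and cannot show whether root shifted against shoot. The nitrate transporter NRT2.1 was lower (-2.16 ± 0.14), and LRX1, a root hair cell wall gene, was lower by 0.84 ± 0.09. WOX5, of the root stem cell niche, had 77.5 and 87.8 in chr11/17, against 6.71 and 16.1 in arid5, 19.2 and 16.7 in rlt1/2 and 19.9 and 14.7 in WT (1.94 ± 0.21). Of 15 seed markers 3 could be tested, and 2 were higher: EM6, a late embryogenesis protein, had 71.9 and 66.7 in chr11/17 and at most 10.7 in an accessory mutant library, so it entered the test only through chr11/17, and CRA1, a storage protein, had 270 and 70.6, against at most 27.2. Of the 2 anther markers tested, TKPR1 was lower by 0.58 ± 0.12. LAP6 differed by -0.29 ± 0.11 (adjusted p = 0.0412), a call lost under 11 of the 19 alternatives, with adjusted p-values up to 0.258. The part of tissue makeup in the other results was not tested.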

How the data were processed

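RNA of 8 seedling libraries was sequenced, and the authors deposited 3 tables, each of a mutant and the same 2 WT libraries. HISAT2, edgeR and TAIR10 are named in the submitters' processing notes, with no versions. The counting program and its use of strand were not given in the sources used here. The deposited values are a normalised signal per gene, of the kind edgeR gives when it equalises library sizes. Inverting that step gave whole reads for 100% of the values (relative tolerance 1e-10), and the reads of the WT libraries showed 0 differences between tables. The tables were brought to one scale through WT, with factors of 0.99859 for arid5, 1 for chr11/17 and 0.90322 for rlt1/2.

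From these values, genes with at least 10 in at least 2 of the 8 libraries were tested on log2(value + 10) with limma 3.58.1 in R 4.3.3, with a variance trend, 4 groups in the same fit and Benjamini-Hochberg adjustment over all genes tested at 0.05. Alternatives included edgeR 4.0.16 and DESeq2 1.42.0 on the recovered reads, other scalings and filters, and each library left out in turn. The replicate numbers were not shown to pair the libraries. Read shares used recovered reads and an exact two-sided permutation test. On simulated data for this contrast over 21086 genes, limma recovered 41 of 50 genes changed 1.5-fold, 49 of 50 changed 2-fold, and called 8 unchanged genes. Few genes were changed in the simulation, the mutant groups were otherwise alike, and all genes had the same dispersion. It therefore does not give the error rate among the calls in the real data, where most genes were called. Depth sets the counting error of low genes. The floor is 3 reads per library, and intervals and floors cover counting error only.

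The comparison, the 33 gene lists and the named genes were chosen with earlier results of these data known. Named by rule were the 5 mutated genes, the 12 largest differences per direction (mean of at least 50, groups not overlapping), up to 3 called genes per list by adjusted p, FT, SOC1, FLC and the floral identity genes, and 4 genes per direction each for WT lying between the groups and for chr11/17 lying within 1.2 times WT. Other list members in the text were picked after their values were seen. Of the 146 genes named by rule, 28 overlap another annotated gene. Reads may be split among the near-identical copies of the LHCB and RBCS families, SAUR19 to SAUR24 and KIN1.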

Additional observations from a re-analysis of the deposited data

Results flagged for a closer look

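At 13 named genes the difference between chr11/17 and one accessory mutant was not the same as that from the other, by the limma contrast of arid5 with rlt1/2 at an adjusted p of 0.05 over all genes. Values are log2 levels in arid5 minus rlt1/2. Those of the mutated genes were -2.28 for ARID5, 5.16 for RLT2 and 0.55 for RLT1. The senescence marker SAG13 differed by -3.24, DXPS1 by -3.38, ELI3-2 by -2.76, CSLG2 by -2.22 and AMY1 by -1.80. The jasmonate genes CYP94B3, VSP1 and LOX3 differed by -1.45, -1.44 and -1.07, RD20 by -1.15 and AT1G52000 by -0.97. For the 10 genes other than the mutated ones, arid5 was thus lower than rlt1/2, and the difference from chr11/17 was larger for arid5.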

How the results depend on the processing

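Under 19 alternatives, the counts over all genes called against arid5, against rlt1/2 and against both stayed within 1.5 times, and no called named gene changed direction. Counts within 11 of the gene lists moved further under at least 1 alternative. Besides those given with the lists, the ISWI subunit genes called higher went to 1, against 3, with arid5 and rlt1/2 as 1 group, and those called lower to 1, against 2, with DESeq2 and without any of 5 single libraries. Leaving out each library in turn gave 6106 to 6799 genes higher and 6693 to 7610 lower than in arid5 and rlt1/2 together, 5643 to 6571 higher and 6133 to 7282 lower than in arid5, and 5608 to 6336 higher and 6155 to 7051 lower than in rlt1/2. The differences in read share ranged from -6.11 to -4.98 percentage points for the light reactions, -2.86 to -2.36 for the Calvin cycle and 0.446 to 0.478 for jasmonate synthesis. Taking the shares from the deposited values, an alternative chosen after seeing the data, kept each direction. edgeR called 14727 genes and DESeq2 13281.

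A fit with the replicate number as a block called 14691 genes, 6925 higher and 7766 lower. Deviations of same-numbered libraries correlated between -0.135 and 0.154 among the groups, so the numbers were not taken to pair them.

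Of 139 called named genes, 135 stayed past the threshold under every alternative run. ARID5, RLT2, SOC1 and LAP6 did not, and the cause was not tested. The median difference over all genes tested was -0.15 with libraries scaled to equal totals and -0.12 with the tables as deposited, against -0.05 as reported, so differences of that size depend on the scaling. Genes with few reads, such as FLC and AG, are limited by depth.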
